A study of Mus musculus with 4 samples.

Results

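The genes described here build and control the MHC class I antigen presentation pathway in primary mouse microglia, with and without lysophosphatidylserine (LysoPS). All 10 were taken by gene symbol from the deposited count table and each matched 1 of its 51826 gene models. They are the class I heavy chains H2-K1 and H2-D1, their light chain B2m, the peptide transporter genes Tap1 and Tap2, the loading factor Tapbp, the transcriptional regulator Nlrc5, and the immunoproteasome subunits Psmb8, Psmb9 and Psmb10. Microglia were shaken from mixed cultures of newborn C57BL/6 brains after 2 weeks. The 2 mock libraries are labelled untreated and the 2 LysoPS libraries were treated for 4 h, with no genetic change given for either group. LysoPS is a phospholipid with a single fatty acid chain and a known ligand of GPR34, which the series title names.

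MHC class I molecules show peptides from inside the cell to CD8 T cells. The proteasome cuts proteins into peptides, the TAP transporter carries them into the endoplasmic reticulum, and tapasin holds an empty heavy chain and beta-2 microglobulin next to TAP until a peptide fits. Interferons and NF-kappaB signals are known to raise these genes, NLRC5 binds their promoters together with RFX factors, and microglia carry little class I until they are activated.

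The promoters are shown first because the heavy chain and light chain genes share known regulatory boxes. Capitals mark a match to the NF-kappaB consensus and a match to the core that IRF factors bind (AANNGAAA), each on either strand, and, in the printed direction, a TGACG (the X2-like box) followed by an ATTGG (the Y box, an inverted CCAAT). Sequences are from RefSeq on GRCm38.p6 and run 5′ to 3′ on the gene's strand. They end before the outermost annotated start. H2-K1 is at chr17:34000348-34000533 (minus strand) and B2m at chr2:122147487-122147685 (plus strand).
H2-K1: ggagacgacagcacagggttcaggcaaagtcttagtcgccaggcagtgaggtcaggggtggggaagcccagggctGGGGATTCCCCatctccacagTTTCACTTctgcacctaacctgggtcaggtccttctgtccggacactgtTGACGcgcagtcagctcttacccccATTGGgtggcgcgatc
B2m: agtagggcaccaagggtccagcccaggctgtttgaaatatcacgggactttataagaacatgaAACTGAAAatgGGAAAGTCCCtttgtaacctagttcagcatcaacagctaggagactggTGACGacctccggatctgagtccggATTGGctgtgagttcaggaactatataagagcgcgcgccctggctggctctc

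H2-D1 carries the same order of boxes as H2-K1, while in B2m the IRF core comes before the NF-kappaB match. Its NF-kappaB and IRF matches lie at chr17:35262923-35262951 (plus strand), inside the deposited gene model, which starts upstream of the RefSeq start. This element is identical to that of H2-K1 at 28 of 29 bases.
H2-K1: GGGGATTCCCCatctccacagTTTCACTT
H2-D1: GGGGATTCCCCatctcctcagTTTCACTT

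The X2-like and Y boxes lie 20 bases apart in all 3 genes, as the next lines show for H2-K1 (chr17:34000359-34000388), H2-D1 (chr17:35262993-35263022) and B2m (chr2:122147609-122147638). H2-K1 and H2-D1 are identical at 23 of these 30 bases, and H2-K1 and B2m at 13, of which 10 are the boxes that chose the stretch.
H2-K1: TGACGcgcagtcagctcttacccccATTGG
H2-D1: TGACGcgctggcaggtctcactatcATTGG
B2m: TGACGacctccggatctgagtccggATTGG

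Over the 250 bases before the start in 32851 RefSeq windows (27025 genes), the NF-kappaB consensus was present in 3.90%, the IRF core in 21.31%, TGACG in 17.77% and ATTGG in 33.85%, on either strand. TGACG followed by ATTGG on the gene's own strand, with 10 to 30 bases between, was present in 102 windows (0.31%). All 3 features occurred together in 7 windows of 6 genes, which were H2-K1, H2-D1, B2m, the class I gene models H2-M3 and H2-Q7, and the class II gene H2-Aa. Of the members, 8 had a window, and none of the other 5 (Tap1, Tapbp, Psmb8, Psmb9 and Psmb10) held the NF-kappaB consensus, the IRF core or the spaced pair. A further pattern that was searched, TTCNNNGAA, was present in 7.02% of windows and, among the members, in that of Psmb8 alone. Tap1 and Psmb9 lie head to head, with 225 bases between their RefSeq starts, while their deposited models overlap by 212 bases. The deposited Psmb9 model starts upstream of the RefSeq start (34187764 against 34187330, minus strand). The window searched for Psmb9 therefore lies inside its deposited model, and bases upstream of that model were not searched. The motifs and their spacing were chosen with these promoters in view, so the shares are a description, and a match is not evidence of binding.

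The libraries held between 30001098 and 45193959 counts, of which the 10 genes took 0.123% and 0.118% in mock and 0.234% and 0.213% after LysoPS. Of 19057 genes tested with edgeR's quasi-likelihood test, 25.5% passed an adjusted p of 0.05, with 12.8% higher and 12.6% lower. Of these calls 50.4% were higher, against 30.5% when the deposited TPM values were tested with limma, a scale on which the median of all genes lay at -0.15 on the log2 scale rather than -0.01. The cultures were not microglia alone. The summed level of 10 astrocyte markers (Gfap, Aqp4 and others) was 9805 to 10918 CPM in mock and 5106 to 5832 CPM after LysoPS. That of 12 microglia and macrophage markers was 4867 to 5367 CPM and 12760 to 14672 CPM, most of it Lyz2. No marker of either list was at 0 in all libraries. Of 13 microglia models for those 12 genes 9 were higher and none lower (median log2 fold change 0.57), and of the astrocyte markers 8 were lower and none higher (median -0.73). The microglia marker Cx3cr1 differed between replicates, at 132 and 13.4 CPM in mock and 176 and 19.5 CPM after LysoPS, and did not pass. An Itgam model that did not pass held 1 and 1873 counts in the mock libraries. Fibroblast markers (Fn1, Col1a1 and others) summed to more than either list in mock, at 14501 and 14646 CPM, and to 11986 and 12347 CPM after LysoPS, with 1 of 8 higher and 3 lower. Of 8 oligodendrocyte lineage markers 4 were higher and none lower (summed level 243 to 250 CPM in mock and 281 to 293 CPM after LysoPS). Of 6 tested endothelial markers 2, Kdr and Cdh5, were lower and none higher. Their list summed to 342 and 336 CPM in mock, against 166 and 190 CPM with LysoPS. Most of that sum was Cdh5, at 306 and 296 CPM in mock and 147 and 170 CPM with LysoPS. Both LysoPS libraries lay below both mock libraries for 3 endothelial markers and above them for 2, Pecam1 and Esam. Neither of these 2 passed, with Pecam1 at 1.70 and 2.10 CPM and Esam at 0.747 and 0.778 CPM with LysoPS. The 7 neuron markers summed to 635 and 728 CPM in the mock libraries and 571 and 788 CPM in the LysoPS libraries, with 1, Stmn2, higher. The 8 T and NK cell markers summed to at most 4.58 CPM in any library, 5 of them at 0 in all, and 1 of the 2 tested, Cd4, was lower. More cells of a type and more RNA per cell cannot be told apart in such libraries, and the part of these markers in the results below was not tested. The labels do not say whether replicates came from separate cultures, so p-values measure the spread between these samples, which may be technical.

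The design sets treated against untreated cultures, and the comparison is followed here step by step along the class I pathway. By the ratio of mean CPM, Psmb8 rose most (3.04-fold), followed by the light chain B2m (2.20-fold), Psmb10 (2.15-fold) and the heavy chains H2-K1 (1.97-fold) and H2-D1 (1.95-fold). Psmb9 (1.72-fold), Nlrc5 (1.64-fold), Tap2 (1.57-fold) and Tapbp (1.34-fold) rose by less. Of the 10 members, 9 were higher and none lower, beside 12.8% of all tested genes called higher. Tap1 was the member that did not pass. In all 10, both LysoPS libraries lay above both mock libraries, which 32.5% of all tested genes did as well. Of the members, 3 (B2m, Psmb8 and Psmb10) were both called and at least 2-fold higher, beside 4.32% of tested genes. The median log2 fold change of the members was 0.88, and that of all tested genes -0.01. Left without mock replicate 1 the members had a median log2 fold change of 0.97, and without mock replicate 2 of 0.83. Tap2, Tapbp, Nlrc5 and Psmb9 lost the call in both of these fits, in which fewer of all tested genes were called as well. On TPM, 6 members were called higher, beside 1342 of 16888 tested genes.

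Compared per transcript length, in the deposited TPM values, the light chain was by far the most abundant member. In mock, B2m stood at 1571 and 1540 TPM, H2-D1 at 188 and 179, Tapbp at 172 and 169, and H2-K1 at 157 and 166. Psmb10 (30.6 and 28.1 TPM) and Psmb8 (19.7 and 17.5) followed. Tap2 (15.6 and 12.1 TPM) and Tap1 (12.9 and 11.4) overlapped, and Psmb9 (6.41 and 5.42) and Nlrc5 (4.98 and 4.78) were lowest. After LysoPS, Tapbp at 198 and 198 TPM lay below both heavy chains, with H2-D1 at 324 and 313 and H2-K1 at 287 and 275. Psmb8 (55.4 and 44.5 TPM) then overlapped Psmb10 (57.6 and 50.1). Tap2 (18.4 and 16.2 TPM) no longer overlapped Tap1 (13.4 and 13.6). The other members kept their places, with B2m at 3109 and 2967 TPM, Psmb9 at 9.99 and 8.14 and Nlrc5 at 7.26 and 6.94.

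**Figure D1:**
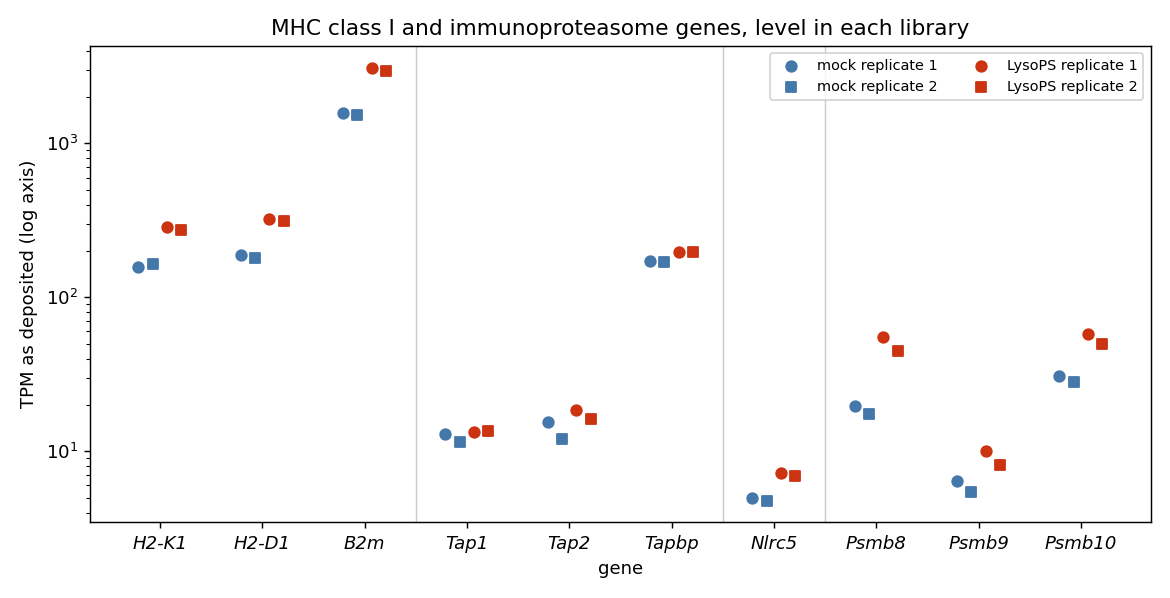
Deposited TPM (log axis) of the 10 genes in each of the 4 libraries, blue for mock and red for LysoPS, circles for replicate 1 and squares for replicate 2. B2m lies at 1540 to 3109 TPM and Nlrc5 at 4.78 to 7.26, and both LysoPS points lie above both mock points for every gene, with the narrowest gaps at Tap1 and Tap2.

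The heavy chains bind the peptide and meet the T cell receptor. H2-K1 (ENSMUSG00000061232, chromosome 17, 33996017 to 34000333, minus strand) stood at 115 and 119 CPM in mock and 241 and 221 CPM after LysoPS, where CPM is the read count scaled to the size of its library. The groups did not overlap, and the log2 fold change was 0.98 ± 0.07 (SE; adjusted p = 0.00158, edgeR). H2-D1 (ENSMUSG00000073411, chromosome 17, 35262730 to 35267499, plus strand) stood at 180 and 167 CPM in mock and 353 and 323 CPM after LysoPS. Its log2 fold change was 0.96 ± 0.08 (adjusted p = 0.00193, edgeR). The ratio of H2-D1 to H2-K1, per length, was 1.20 and 1.08 in mock and 1.13 and 1.14 after LysoPS, so the groups overlapped.

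Heavy chain genes are near copies, and reads could have been split among them. The counts of all 31 gene models of the H2-K, H2-D, H2-L, H2-Q, H2-T and H2-M regions were therefore also summed. The sum was 391 and 373 CPM in mock and 754 and 682 CPM after LysoPS, with a log2 fold change of 0.91 ± 0.07 (adjusted p = 0.00190, edgeR). H2-K1 and H2-D1 held 75.5% and 76.4% of those counts in mock and 78.8% and 79.7% after LysoPS.

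B2m (ENSMUSG00000060802, chromosome 2, 122147686 to 122153083, plus strand) encodes beta-2 microglobulin, the light chain without which heavy chains do not reach the surface. It stood at 631 and 601 CPM in mock and 1422 and 1292 CPM after LysoPS. Both LysoPS values were more than 2 times both mock values, with a log2 fold change of 1.14 ± 0.07 (adjusted p = 0.000998, edgeR). Per length there were 4.56 and 4.46 B2m transcripts for each H2-K1 or H2-D1 transcript in mock, and 5.09 and 5.05 after LysoPS. Against all 31 heavy chain models the ratio was 3.42 and 3.40 in mock and 3.99 and 4.01 after LysoPS. These ratios did not overlap between groups, but an exact permutation test of 2 against 2 libraries cannot go below the two-sided p = 0.333 that it gave for both.

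The genes of the peptide loading complex moved less. Tap1 (ENSMUSG00000037321, chromosome 17, 34187553 to 34197225, plus strand) encodes the first of the paired TAP subunits. It stood at 15.9 and 13.8 CPM in mock and 19.1 and 18.4 CPM after LysoPS, a log2 fold change of 0.34 with a 95% interval from 0.05 to 0.63. The groups did not overlap, yet the adjusted p of 0.0910 (edgeR) missed the threshold, and it did so in each alternative run, where it ranged from 0.0656 to 0.390. Its model overlaps that of Psmb9 by 212 bases on the opposite strand. No source used here says whether strand was kept, so it is not known whether reads there were told apart.

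Tap2 (ENSMUSG00000024339, chromosome 17, 34203527 to 34216321, plus strand) encodes the partner of TAP1. It stood at 19.96 and 18.7 CPM in mock and 33.3 and 27.2 CPM after LysoPS (log2 fold change 0.65 ± 0.13, adjusted p = 0.0215, edgeR). The transcript length implied by its deposited counts and FPKM varied by 1.25 times between libraries, so its reads may have been given to different transcript models. On TPM its log2 difference was 0.31 and the call was lost (adjusted p = 0.199, limma). It was also lost without mock replicate 1 (0.0648) and without mock replicate 2 (0.0956, both edgeR adjusted p).

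Tapbp (ENSMUSG00000024308, chromosome 17, 33915899 to 33929288, plus strand) encodes tapasin. It stood at 187 and 174 CPM in mock and 249 and 234 CPM after LysoPS, a small rise with a log2 fold change of 0.42 ± 0.07 (adjusted p = 0.0140, edgeR). The call was lost on TPM (log2 difference 0.21, adjusted p = 0.0521, limma), without mock replicate 1 (adjusted p = 0.0568, edgeR) and without mock replicate 2 (0.104). The Tapbp model overlaps Zbtb22 by 3421 bases on the same strand, and Zbtb22 held 968 to 1483 counts in a library against 5749 to 10250 for Tapbp.

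Nlrc5 (ENSMUSG00000074151, chromosome 8, 94434356 to 94527272, plus strand) encodes the transactivator of class I genes. Its level was low, at 8.21 and 8.72 CPM in mock and 14.5 and 13.2 CPM after LysoPS. The groups stood clear of each other, with a log2 fold change of 0.71 ± 0.12 (adjusted p = 0.0135, edgeR). Without mock replicate 1 the adjusted p was 0.0823, and without mock replicate 2 it was 0.0619 (edgeR).

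The immunoproteasome replaces the constitutive catalytic subunits of the 20S core with inducible ones, which changes the peptides it releases. Psmb8 (ENSMUSG00000024338, chromosome 17, 34197721 to 34201454, plus strand) encodes the subunit LMP7 and had the largest fold change of the 10. It stood at 15.1 and 13.1 CPM in mock and 48.5 and 37.3 CPM after LysoPS, with a log2 fold change of 1.61 ± 0.16 (adjusted p = 0.00343, edgeR). The lower LysoPS library was still more than 2 times the higher mock library, and 2.95% of all tested genes had a larger log2 fold change.

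Psmb10 (ENSMUSG00000031897, chromosome 8, 105935735 to 105938444, minus strand) encodes MECL-1. It rose from 17.3 and 15.2 CPM to 38.1 and 31.8 CPM, a log2 fold change of 1.11 ± 0.13 (adjusted p = 0.00526, edgeR). Psmb9 (ENSMUSG00000096727, chromosome 17, 34181988 to 34187764, minus strand) encodes LMP2 and was the least abundant subunit, with 134 to 259 counts in a library. It stood at 4.35 and 3.33 CPM in mock and 7.32 and 5.93 CPM after LysoPS, a log2 fold change of 0.79 ± 0.20 (adjusted p = 0.0451, edgeR). Its call was lost without mock replicate 1 (adjusted p = 0.0624), without mock replicate 2 (0.191) and without LysoPS replicate 1 (0.111), and on TPM (0.0644, limma).

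**Figure D2:**
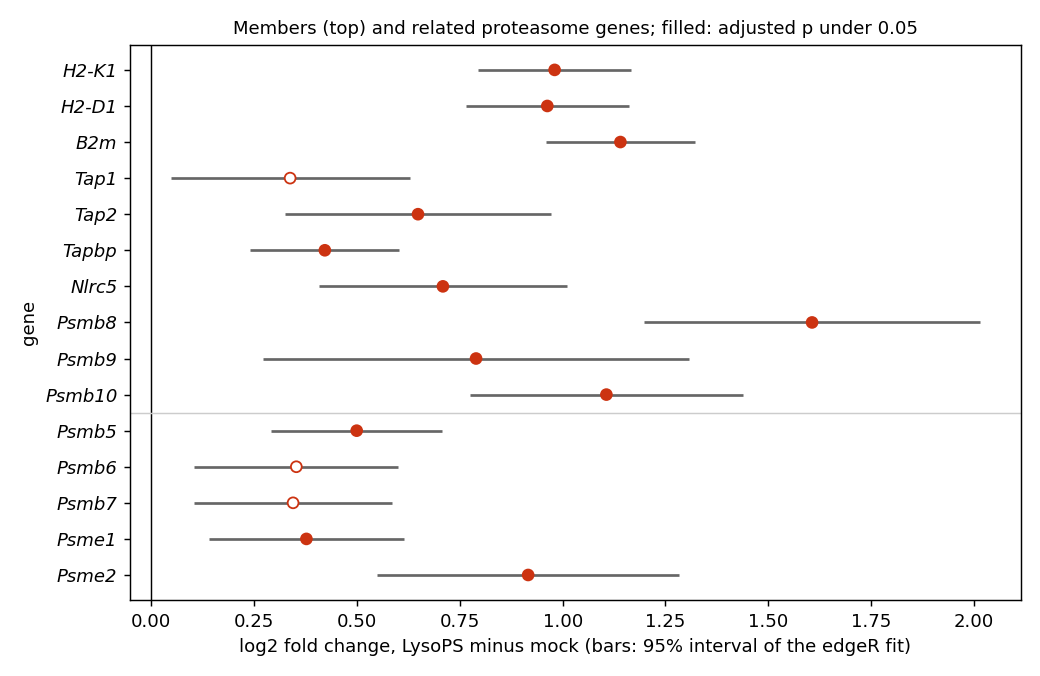
Log2 fold change (LysoPS minus mock) of the 10 genes and, below the line, of the constitutive subunits Psmb5, Psmb6 and Psmb7 and the activators Psme1 and Psme2, with 95% intervals of the edgeR fit. Filled points passed an adjusted p of 0.05. Psmb8 lies highest at 1.61 and Tap1, at 0.34, is the open point among the members.

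Each inducible subunit was set against the constitutive subunit whose place it takes, within each library and per length. Psmb8 to Psmb5 was 0.125 and 0.112 in mock and 0.276 and 0.232 after LysoPS, a log2 difference of 1.09. Psmb10 to Psmb7 was 0.151 and 0.148 in mock and 0.250 and 0.236 after LysoPS, a log2 difference of 0.71. Psmb9 to Psmb6 was 0.0177 and 0.0157 in mock and 0.0238 and 0.0215 after LysoPS, a log2 difference of 0.44. None of the ratios overlapped between groups, and each exact two-sided permutation test gave p = 0.333, the smallest that 2 against 2 libraries allow. In every library the constitutive transcripts stayed in excess: the 3 inducible subunits together came to 7.86% and 7.36% of the 3 constitutive ones in mock and 14.4% and 13.1% after LysoPS.

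**Figure D3:**
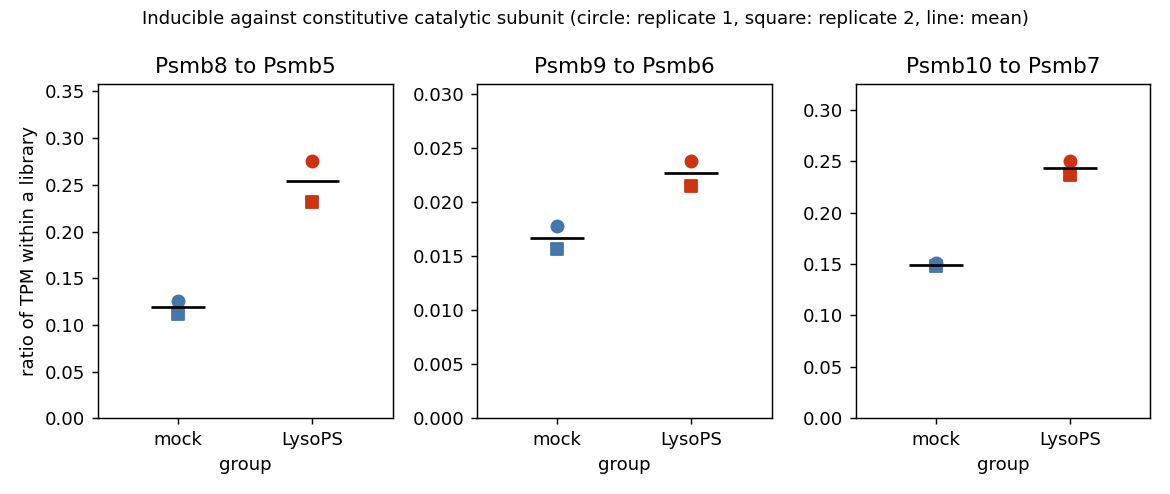
Ratio of TPM between an inducible subunit and its constitutive counterpart in each library (circle replicate 1, square replicate 2, line the mean of 2), with each axis starting at 0. The LysoPS points lie above the mock points in all 3 panels, at 0.232 to 0.276 against 0.112 to 0.125 for Psmb8 to Psmb5.

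The 4 lists of other proteasome genes had median log2 fold changes of 0.35, 0.39, 0.36 and 0.32, in the order constitutive counterparts, other 20S subunits, activators and assembly factors, and 19S cap. Of the constitutive counterparts, Psmb5 rose by 0.50 ± 0.08 on the log2 scale (adjusted p = 0.0127, edgeR), while Psmb6 (0.35, adjusted p = 0.0543) and Psmb7 (0.34, adjusted p = 0.0537) did not pass. Of 12 tested other 20S subunits 10 were higher and none lower (median 0.39), with the smallest p-values at Psma6 (0.66), Psma1 (0.56), Psma2 (0.43) and Psmb2 (0.35). The largest fold change of these was that of Psma8 (1.26 ± 0.27, adjusted p = 0.0272, edgeR), which stood at only 0.584 and 0.555 CPM in mock and 1.40 and 1.33 CPM after LysoPS. Of 20 subunits of the 19S cap, which feeds substrates into the core, 12 were higher and none lower (median 0.32), among them Psmc6 (0.62), Adrm1 (0.53), Psmc1 (0.42) and Psmd14 (0.45). Of 9 activators and assembly factors 5 were higher and none lower (median 0.36). The PA28 activator, which opens the core for peptide release, is built from the products of Psme1 and Psme2. Psme2 rose from 62.6 and 53.4 CPM to 122 and 96.7 CPM (0.92 ± 0.14), and Psme1 from 35.6 and 31.6 CPM to 44.7 and 42.5 CPM (0.38 ± 0.09). Psme3 (0.37), Psme4 (0.29) and the assembly factor Pomp (0.36) were the others.

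Beyond the members, class I and class I-like heavy chain genes went both ways. Of 18 tested, 8 were higher, 2 lower and 8 did not pass, with a median log2 fold change of 0.38. H2-Q4 rose from 17.8 and 16.9 CPM to 50.5 and 40.4 CPM (1.39 ± 0.13, adjusted p = 0.00301, edgeR). H2-M3, which presents formylated peptides, rose by 0.99, H2-Q1 by 1.25 and the lipid-presenting Cd1d1 by 0.87. Fcgrt, the neonatal Fc receptor, which also pairs with B2m, fell by 0.47 (adjusted p = 0.0119), and Mr1, which presents bacterial vitamin metabolites, fell by 0.38 (adjusted p = 0.0283, both edgeR). Reads of the H2-Q and H2-T genes may be shared among near copies.

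Among the chaperones and peptidases that load and trim peptides, 4 of 15 were higher and none lower (median 0.16). They were Erap1, which trims peptides inside the endoplasmic reticulum (0.51), the cytosolic peptidase Tpp2 (0.44), calreticulin Calr (0.33) and Pdia3 (0.33), the disulfide isomerase of the loading complex. The tapasin relative Tapbpl stood at 0.24 ± 0.13 (adjusted p = 0.222, edgeR).

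Of 16 transcription factors known to act on class I promoters, 4 were higher, 1 lower and 11 did not pass (median 0.17). Among those higher, Nfkb1 rose from 52.4 and 51.3 CPM to 121 and 123 CPM (1.23 ± 0.07), Rela by 0.51 and Irf9 by 0.35. Rfx5, a partner of NLRC5 on these promoters, fell from 38.0 and 36.4 CPM to 25.0 and 28.9 CPM (-0.46 ± 0.10, adjusted p = 0.0306, edgeR). Irf1, the interferon-induced activator of class I and immunoproteasome genes, overlapped between groups at 24.8 and 19.7 CPM in mock and 22.5 and 28.2 CPM after LysoPS (0.20 ± 0.17, adjusted p = 0.436, edgeR).

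Transcripts of the interferons themselves were near the limit of detection. Over 21 interferon ligand models the libraries held 4 and 12 counts in mock and 7 and 13 after LysoPS, 18 models had none in any library, and no ligand was tested. Ifnb1 held 2 and 0 counts in mock and 6 and 4 after LysoPS. Of 6 tested receptor chains 4 were higher and 1 lower. Ifngr2 rose from 79.9 and 77.3 CPM to 162 and 154 CPM (1.01 ± 0.07, adjusted p = 0.00131, edgeR), Ifnar2 by 0.42, Ifnar1 by 0.23 and Il10rb by 0.41, while Ifnlr1 fell by 1.06 on the log2 scale from 1.20 and 1.13 CPM in mock.

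**Figure D4:**
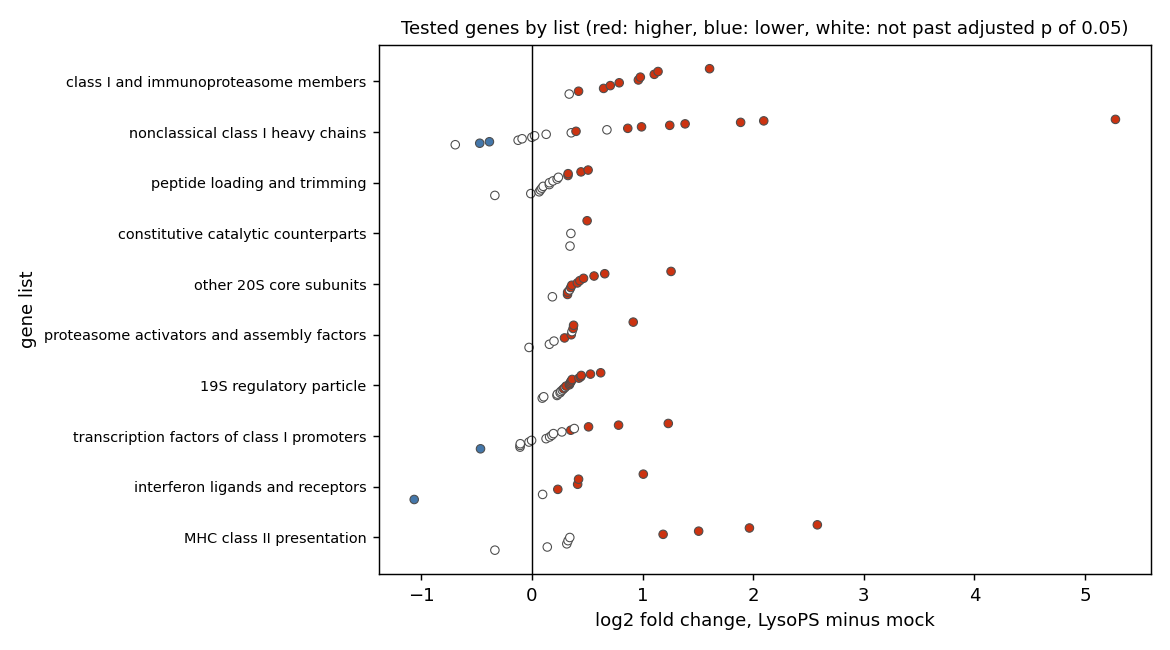
Log2 fold change of every tested gene of the class I pathway lists and of MHC class II, 1 row per list (red higher, blue lower, white not past an adjusted p of 0.05). The members run from 0.34 to 1.61, and most 20S and 19S subunits lie between 0.2 and 0.7. The point beyond 5 is H2-M2, with 4 and 0 counts in the mock libraries.

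The MHC class II pathway, which presents peptides from endosomes to CD4 T cells, had 4 of 9 tested genes higher and none lower. These were Cd74 (2.58), H2-Aa (1.97), H2-Eb1 (1.51) and H2-Ab1 (1.19), while its regulator Ciita was at 1.49 and 1.39 CPM in mock and 1.58 and 2.01 CPM after LysoPS (adjusted p = 0.366, edgeR). Both LysoPS values of Ciita lay above both mock values. Whether class I and class II genes differ in their response was not tested.

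**Figure D5:**
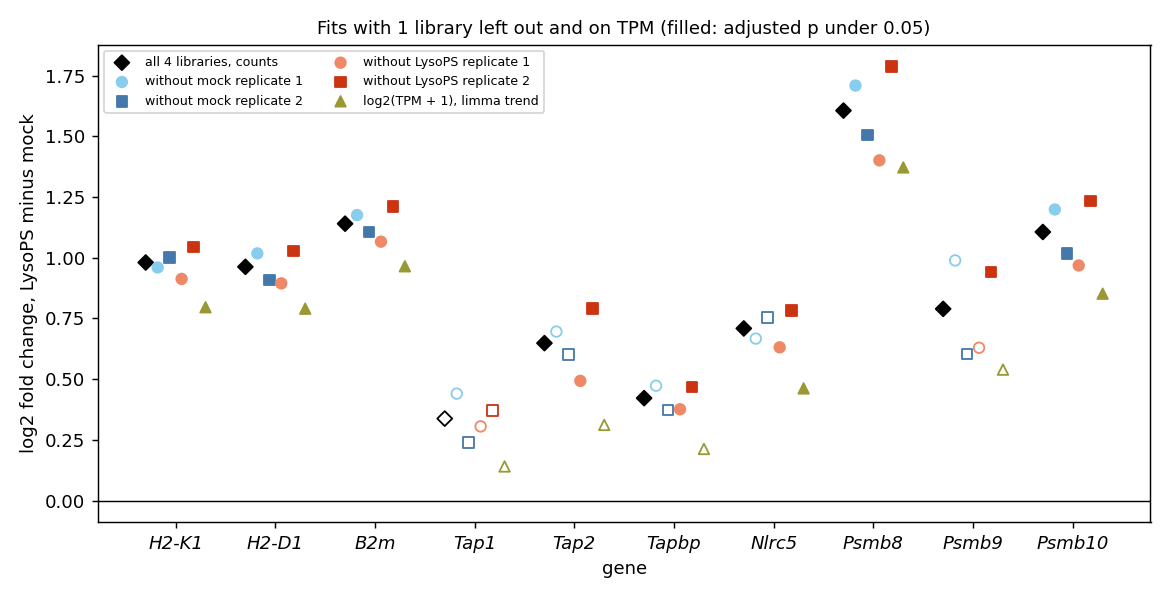
Log2 fold change (LysoPS minus mock) of each member in the fit of all 4 libraries (diamond), with 1 library left out (circles and squares) and on log2(TPM + 1) (triangle). Filled symbols passed an adjusted p of 0.05. H2-K1, H2-D1, B2m, Psmb8 and Psmb10 are filled throughout, Tap1 is open throughout, and all values lie above 0.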

How the data were processed

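Poly-A RNA of 4 libraries was sequenced in pairs on MGISEQ2000. Per the submitters' processing notes, FastQC 0.11.2, Trimmomatic 0.36, HISAT2 and StringTie were used with GRCm38. Settings, annotation release and strand are not given in the sources used here. The deposited table has counts, TPM and FPKM for every gene model and library, per the file headers. The deposited counts are whole and not normalized. The authors' deposited TPM values were used for levels between genes, for ratios and in 1 alternative (log2 of TPM plus 1, limma). The deposited FPKM values were used only for the implied transcript length.

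Counts were fitted with edgeR 4.0.16 (filterByExpr with a minimum count of 10, TMM scaling, quasi-likelihood test, Benjamini-Hochberg over 19057 genes, threshold 0.05) in R 4.3.3. CPM uses TMM-scaled library sizes, and ± is the standard error of a log2 fold change. The groups follow the sample titles. The treatment label speaks of 1 treated replicate, while 2 samples are labelled LysoPS. Other choices were limma 3.58.1 (voom and TPM), DESeq2 1.42.0 and its size factors, other filters, a replicate block and each library left out. Interferon ligands are given as counts. On simulated counts for LysoPS against mock over 18710 genes, the fit recovered 6 of 51 genes changed 1.5-fold, 44 of 73 changed 2-fold and 68 of 69 changed 4-fold. That simulation changed few genes and gave every gene the same spread, while 25.5% of tested genes were called in the data. The recovered shares therefore do not give the sensitivity of the fit to these data. Members and lists were chosen with earlier results of these data known. The named genes are the members, Psmb5, Psmb6, Psmb7, Psme1, Psme2, Irf1, Rfx5 and up to 4 genes of each list with the smallest p. Some genes of this rule are not reported here. Tapbpl, Psma8, Pomp, Ciita, Ifnb1, Ifnar1, H2-M2, H2-Q7, Mr1, Fcgrt, Kdr, Cdh5, Pecam1, Esam, Stmn2, Cd4, Cx3cr1 and Itgam were named after their values were seen.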

Additional observations from a re-analysis of the deposited data

How the results depend on the processing

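The 10 members were refitted under 11 alternatives, and all kept their direction. A further alternative for H2-K1 and H2-D1 was the heavy chain sum, 1 value entered for both and made mostly of their counts. Tap1 was uncalled throughout, so its 11 values count below as unchanged. Of the 112 resulting values, 100 stayed on the same side of the threshold and 12 lost the call, all of Tap2, Tapbp, Nlrc5 or Psmb9. The log2 fold change ranged from 1.37 to 1.79 for Psmb8, 0.96 to 1.21 for B2m, 0.80 to 1.05 for H2-K1 and 0.54 to 0.99 for Psmb9. With 1 library left out, 5 to 9 members and 2165 to 5356 of all genes were called. The lone library of a group is then assumed to vary like the other group. The low values came without mock replicate 1 (2223 genes, 5 members) and without mock replicate 2 (2165 genes, 5 members), and the cause was not tested. The heavy chain sum and the subunit ratios kept their direction in all alternatives run for them. The labels do not say whether a replicate number marks a shared culture. Deviations of same-numbered libraries correlated at 0.078 across genes, and with a replicate block 5433 genes and 9 members were called. The block lowered the SE of every member but Nlrc5, as for B2m (0.071 to 0.042) and Psmb8 (0.161 to 0.091). Single genes could also differ by replicate number. Cx3cr1 stood at 132 and 176 CPM in replicate 1 of mock and LysoPS, and at 13.4 and 19.5 CPM in replicate 2. The cause was not tested. At these depths no interferon ligand had enough counts to be tested.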

Other observations

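Among tested genes outside every list, the 5 whose pattern was closest to the median of the members, by the Euclidean distance of centred log2 CPM over the 4 libraries, were Plekho2 (0.017), Sh2d3c (0.032), Slc25a10 (0.041), Ube2v1 (0.044) and Capg (0.047). Plekho2 stood at 84.3 and 78.3 CPM in mock and 162 and 143 CPM after LysoPS, and Capg, which caps actin filaments, at 98.6 and 91.3 CPM in mock and 187 and 160 CPM after LysoPS. With 4 libraries in 2 groups, this likeness mostly reflects a similar fold change. Psmb9 and Tap1 lie head to head, and their models overlap by 212 bases. Per length, Psmb9 to Tap1 was 0.496 and 0.474 in mock and 0.744 and 0.600 after LysoPS. The groups did not overlap, but the exact two-sided permutation p of 0.333 is the smallest possible, so the test cannot decide whether the ratio changed. Psmb9 to Psmb8 went from 0.325 and 0.310 to 0.180 and 0.183 (p = 0.333 by the same exact test).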
